A study of Mus musculus with 6 samples.

Results

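Tight junctions seal the space between neighbouring epithelial cells. Their strands are built from claudins, four-pass membrane proteins whose mixture sets which ions pass, together with occludin. Junctional adhesion molecules are further membrane proteins of these junctions. On the inner side of the membrane, the zonula occludens (ZO) proteins and cingulin tie the strands to actin. Described here are 9 genes of this apparatus out of the 38561 in a table of raw read counts: the claudins Cldn3, Cldn4, Cldn6 and Cldn7, occludin (Ocln), junctional adhesion molecule A (F11r), ZO-1 (Tjp1), ZO-3 (Tjp3) and cingulin (Cgn). They were taken by gene symbol, not by their values, and each matched 1 row. The early mouse embryo builds such junctions in the outer trophectoderm, and primitive endoderm later becomes an epithelium facing the blastocyst cavity.

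The cells were undifferentiated mouse embryonic stem cells (ESCs) at passages 13 to 17 (strain 129X1/SvJ x 129S1/Sv), kept without feeder cells on gelatin in serum replacement medium with leukemia inhibitory factor. The labels name no transgene, mutation or drug treatment in any fraction. Cells were stained for PECAM1, an adhesion molecule of undifferentiated ESCs, and PDGFRa, a growth factor receptor of primitive endoderm, and 3 fractions were sorted: PDGFRa-only (PECAM1minPDGFRaplus), double-positive (PECAM1plusPDGFRaplus) and PECAM1-only (PECAM1plusPDGFRamin). RNA of 100000 sorted events per library was amplified and sequenced, with 2 libraries per fraction, numbered Exp1 and Exp2 in the labels and called replicates 1 and 2 here. The labels do not say whether these come from separate cultures, so the p-values measure only the spread between libraries, which may be technical.

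Total counts ranged from 4809661 to 7273669 per library. Levels are read counts relative to library size (CPM) scaled by TMM (trimmed mean of M-values), and each mean is given with its SD over the 2 libraries. Pdgfra and Pecam1 followed the sort: Pdgfra stood at 508 and 604 CPM in the PDGFRa-only libraries, 551 and 516 in the double-positive ones and 2.03 and 1.88 in the PECAM1-only ones, and Pecam1 at 1.57 and 1.51, 53.7 and 44.8, and 165 and 142 CPM. Differences were tested with edgeR's quasi-likelihood test, with p adjusted by the Benjamini-Hochberg method over 13909 tested genes and a threshold of 0.05. Positive log2 fold changes mark genes higher in the first-named fraction, and SE is their standard error. In bulk RNA of sorted cells, fewer cells of a type and less RNA per cell cannot be told apart.

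The fractions differed in the amounts and proportions of their claudin RNA. Cldn6, a claudin of early embryonic epithelia, made up most claudin RNA in both PDGFRa-positive fractions and was 28.9-fold higher in the PDGFRa-only than in the PECAM1-only fraction. Cldn7 followed the same order at a lower level. Cldn4 went the other way: it had counts in the PECAM1-only and double-positive libraries and 0 counts in both PDGFRa-only libraries.

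Cldn6 (chromosome 17, 23679249 to 23682446, plus strand, GRCm38) stood at 168 and 179 CPM in the PDGFRa-only libraries, at 89.3 and 134 in the double-positive libraries and at 3.19 and 8.91 in the PECAM1-only libraries. The 3 fractions did not overlap, and on a log2 scale the double-positive libraries lay nearer to the PDGFRa-only ones. Against the PECAM1-only fraction, the log2 fold change was 4.85 (SE 0.312, adjusted p = 6.05e-10, edgeR) for PDGFRa-only and 4.21 (SE 0.310, adjusted p = 8.74e-09) for double-positive cells. Without PECAM1-only replicate 2 these values were 5.76 and 5.13. Between the PDGFRa-only and double-positive fractions the value was 0.64 (SE 0.241, adjusted p = 0.0778, edgeR), which missed the threshold. It passed without double-positive replicate 2 (0.96, adjusted p = 0.0233), without PECAM1-only replicate 1 (adjusted p = 0.0238) or 2 (adjusted p = 0.0234), without a count filter (adjusted p = 0.00514) and when only these 2 fractions were fitted (adjusted p = 0.0368). The neighbouring Cldn9, a close relative 138 bp away on the opposite strand, had 1 count in all 6 libraries.

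Cldn7 (chromosome 11, 69964779 to 69967885, plus strand), a claudin found along the side membranes of many epithelia, stood at 8.29 and 14.5 CPM in PDGFRa-only, 4.87 and 7.65 in double-positive and 1.02 and 2.03 in PECAM1-only libraries. Its fractions did not overlap either. It was higher in the PDGFRa-only (log2 fold change 2.92, SE 0.420, adjusted p = 4.44e-06, edgeR) and the double-positive fraction (2.04, SE 0.443, adjusted p = 9.67e-04) than in the PECAM1-only one. The difference between the first 2 was 0.89 (SE 0.344, adjusted p = 0.0797, edgeR), and it passed without PDGFRa-only replicate 1 (1.21, adjusted p = 0.00945).

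Cldn4 (chromosome 5, 134945119 to 134946934, minus strand), a single-exon claudin of tight epithelia, had 0 and 0 counts in PDGFRa-only, 6 and 14 in double-positive and 25 and 52 in PECAM1-only libraries. In CPM these were 0, then 0.942 and 2.18, then 3.63 and 8.12. The order was the reverse of that of Cldn6, again without overlap. Against a floor of 3 counts over the fraction, Cldn4 was at least 21.4-fold lower in the PDGFRa-only than in the PECAM1-only fraction (adjusted p = 5.04e-06, edgeR) and at least 5.79-fold lower than in the double-positive one (adjusted p = 6.69e-03). Leaving out PECAM1-only replicate 2 gave a first bound of 13.4, and leaving out double-positive replicate 2 a second bound of 3.48. The authors' RPKM table lists Cldn4 at 0.175 in both PDGFRa-only libraries, where the counts are 0. On the log2(RPKM + 0.1) scale its first difference was -4.14 (17.6-fold, adjusted p = 0.00242, limma) and its second -1.73 (3.31-fold, adjusted p = 0.141), both smaller than the bounds from counts. Both RPKM folds depend on the value listed for 0 counts and on the added 0.1. Cldn4 was also lower in double-positive than in PECAM1-only cells (log2 fold change -1.89, SE 0.513, adjusted p = 6.15e-03, edgeR). That call did not survive leaving out PECAM1-only replicate 2 (-1.19, adjusted p = 0.210) or double-positive replicate 1 (-1.39, adjusted p = 0.0908), and the value was -2.60 without double-positive replicate 2.

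Cldn3 (chromosome 5, 134986214 to 134987472, plus strand), which lies near Cldn4, was too low to test. It had 3 and 1 counts in the PECAM1-only libraries, 0.435 and 0.156 CPM, and 0 in the other 4. A count of 0, at 3 counts over the fraction, allows up to 0.270 CPM in the PDGFRa-only and 0.235 CPM in the double-positive fraction, so a difference was not detectable at this depth. Its exon overlaps the antisense gene Wbscr25 by 40 bp, and strand use in counting is not given in the sources used here.

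**Figure D1:**
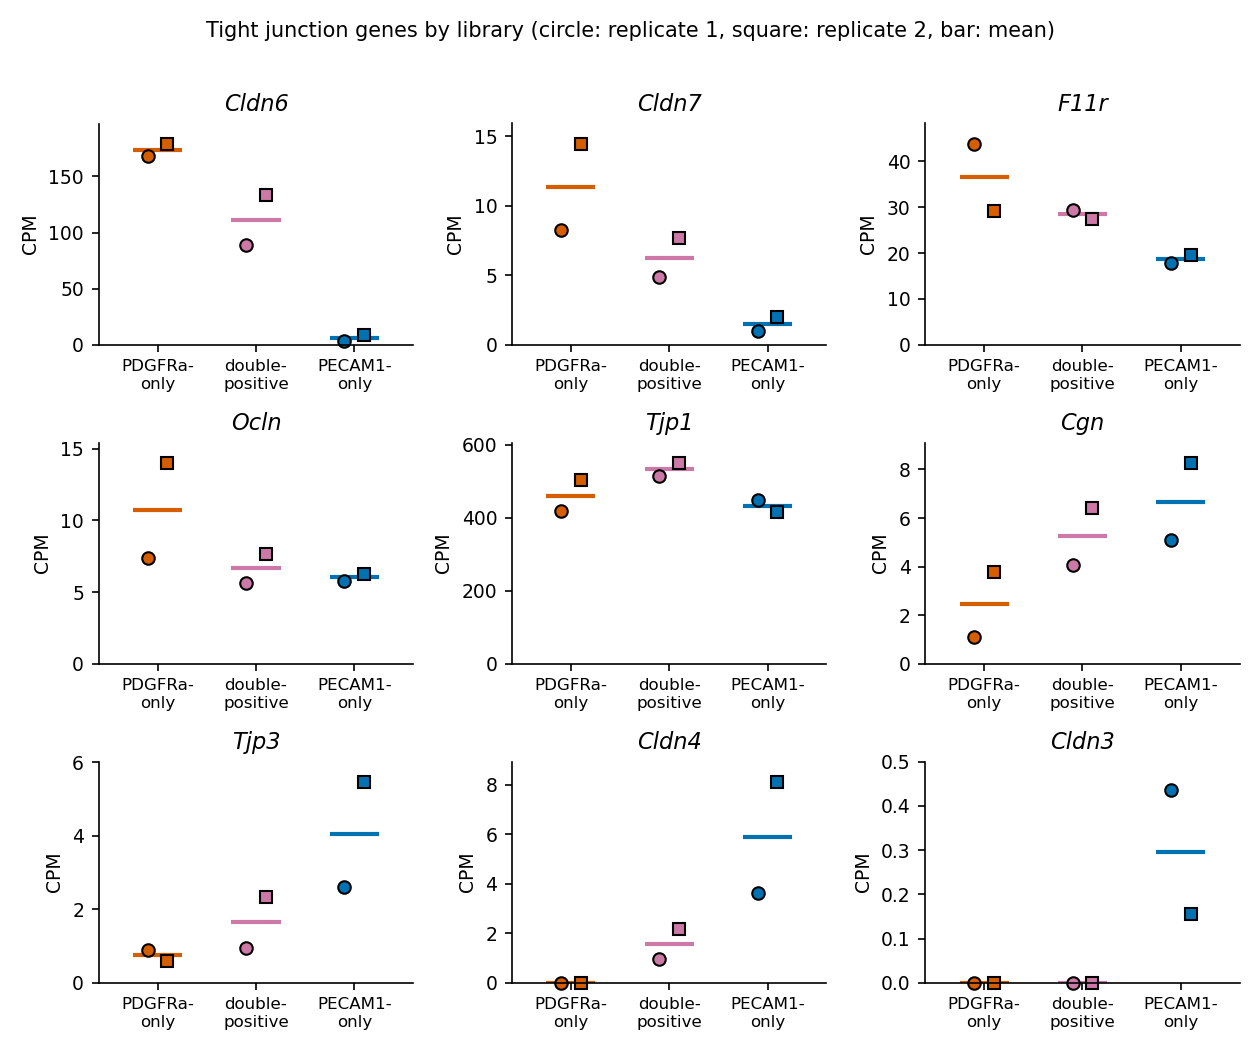
Level of each of the 9 genes in CPM (y axis, starting at 0, a scale of its own per gene) in the 3 fractions (x axis), with a circle for replicate 1, a square for replicate 2 and a bar for the mean. Cldn6 and Cldn7 are highest in the PDGFRa-only libraries, Cldn4 and Tjp3 in the PECAM1-only ones, and Tjp1 stands between 415 and 551 CPM in all 6.

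The promoters of Cldn6, Cldn4 and Cgn are shown because these genes differed between fractions in opposite directions. Their windows were also chosen for letters matching motifs of regulators, some of which differed between fractions too. Whether those regulators act on these genes was not tested. Sequences are from RefSeq on GRCm38.p6, written 5′ to 3′ on the gene's strand, with capitals for motif matches. The lines named Cldn6, Cldn4 and Cgn end just before the first annotated exon base. They cover chr17:23679115-23679248 (plus) for Cldn6, chr5:134946935-134947184 (minus) for Cldn4 and chr3:94786493-94786732 (minus) for Cgn. The line named Cldn6 site, chr17:23679262-23679287 (plus), lies inside the first Cldn6 exon of GENCODE M21, 93 bases before the RefSeq start.
Cldn6: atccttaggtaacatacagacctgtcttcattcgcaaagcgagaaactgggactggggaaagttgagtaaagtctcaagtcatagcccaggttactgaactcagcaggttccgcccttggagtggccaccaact
Cldn6 site: gaaacgcacgCAGGTGgctatcgccg
Cldn4: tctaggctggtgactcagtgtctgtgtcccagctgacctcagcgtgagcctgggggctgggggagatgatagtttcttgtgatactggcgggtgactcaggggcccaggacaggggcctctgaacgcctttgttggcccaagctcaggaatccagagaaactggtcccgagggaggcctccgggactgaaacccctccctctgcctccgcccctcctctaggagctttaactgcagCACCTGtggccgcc
Cgn: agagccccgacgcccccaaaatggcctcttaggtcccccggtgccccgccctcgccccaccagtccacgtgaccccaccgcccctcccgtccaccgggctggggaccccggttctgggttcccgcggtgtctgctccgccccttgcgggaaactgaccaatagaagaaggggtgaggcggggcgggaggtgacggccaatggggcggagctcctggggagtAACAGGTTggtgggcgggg

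The line named Cldn6 holds no match. The capitals in the lines named Cldn6 site and Cldn4 are the E-box CAGGTG, or CACCTG on the other strand, which Snail and Zeb repressors bind. It lies 14 bases before the Cldn4 start. Of the 12 windows of 250 bases before a RefSeq start that the 9 genes have, 7 held the E-box (6 genes: Cldn4, Cldn6, Cldn7, Ocln, Tjp3 and F11r), against 17.2% of 32851 such windows of all genes. Cldn7, Ocln and Tjp3 have 2 windows each. The capitals in Cgn, 29 bases before its RefSeq start and 19 before the end of the printed line, are AACCNGTT on the other strand, the letters of Grainyhead-like factors. These letters were in 1 of the 12 windows, the one printed, and in 1.79% of all windows. The GATA letters GATAA were in 2 of the 12 windows (22.6% of all) and the AP-2 letters GCCNNNGGC in 1 (13.7% of all), each searched on both strands. A match describes letters and is not evidence of binding.

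Claudin makeup was compared per kb of exon over the 26 genes whose names in the table begin with Cldn, Cldnd2 among them, of which 6 had 0 counts in all libraries. Summed claudin RNA was 135 and 149 CPM per kb in PDGFRa-only, 84.2 and 113 in double-positive and 22.0 and 29.3 in PECAM1-only libraries. Cldn6 took 69.7% and 72.3% of it in PDGFRa-only, 61.6% and 68.8% in double-positive and 8.43% and 17.6% in PECAM1-only libraries, in order of size. In the PECAM1-only fraction the largest shares were those of the gene called Cldn25 in the table (Cldnd1 in GENCODE M21), at 33.8%, and of Cldn12, at 20.4%, on average. Cldn4 averaged 12.2% there and 0.841% in the double-positive fraction. Every share depends on counting Cldn25, a claudin domain gene by its GENCODE name, as a claudin.

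**Figure D2:**
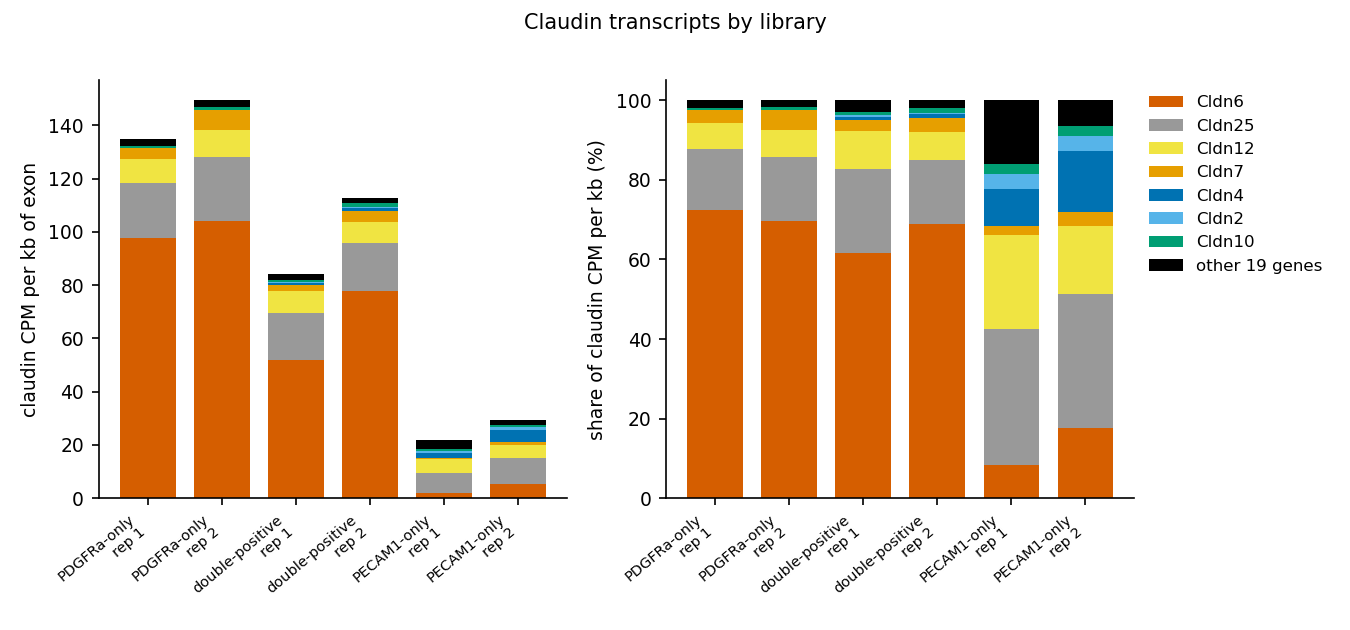
Claudin RNA by library (x axis), as CPM per kb of exon (left) and as a share of the summed claudin CPM per kb in percent (right), with 1 colour per gene and black for the other 19 genes. The PDGFRa-only bars reach 135 and 149 CPM per kb and are mostly Cldn6, while the PECAM1-only bars reach 22.0 and 29.3 and are mixed.

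Of 22 other claudin names looked for, 4 genes were abundant enough to test. Cldn25 (Cldnd1 in GENCODE M21) was higher in the PDGFRa-only than in the PECAM1-only fraction (57.4 ± 5.53 against 22.2 ± 4.36 CPM, log2 fold change 1.37, adjusted p = 3.95e-06, edgeR), as was Cldn12 (40.3 ± 3.77 against 21.6 ± 0.678 CPM, 0.90, adjusted p = 4.26e-04). Cldn2, a channel-forming claudin of leaky epithelia, had 0 counts in the PDGFRa-only libraries and 3.25 ± 0.702 CPM in the PECAM1-only ones. It was at least 12-fold lower in the former by counts (adjusted p = 2.03e-05, edgeR). Cldn2 passed the count filter through its PECAM1-only libraries, where it was high, so only a lower value could be called. The RPKM table lists Cldn2 at 0.0953 in both PDGFRa-only libraries, and the difference there was -2.58 (5.97-fold, adjusted p = 0.00111, limma). This fold too depends on the value listed for 0 counts and on the added 0.1. Cldn10 stood at 2.37 ± 1.13 and 1.66 ± 0.300 CPM (0.56, adjusted p = 0.389).

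The other 2 membrane proteins differed less than Cldn6 did. F11r (chromosome 1, 171437535 to 171464603, plus strand), an immunoglobulin-type adhesion molecule that recruits polarity proteins, stood at 43.9 and 29.2 CPM in PDGFRa-only, 29.5 and 27.5 in double-positive and 17.8 and 19.7 in PECAM1-only libraries. The PECAM1-only libraries were below all others, while the first 2 fractions overlapped. F11r was higher in the PDGFRa-only than in the PECAM1-only fraction (log2 fold change 0.95, SE 0.221, adjusted p = 9.26e-04, edgeR), although not in the RPKM table (adjusted p = 0.0803, limma). Its call in double-positive against PECAM1-only cells (0.60, SE 0.221, adjusted p = 0.0366, edgeR) was lost with upper-quartile (0.127) or library-size scaling (0.169), with DESeq2 (0.127), with RPKM (0.325), with a stricter count filter (0.0575), and without any 1 of the 4 libraries compared (adjusted p from 0.0808 to 0.180). PDGFRa-only against double-positive gave 0.35 (SE 0.215, adjusted p = 0.286), or 0.62 (adjusted p = 0.0406) without PDGFRa-only replicate 2.

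Ocln (chromosome 13, 100496507 to 100552718, minus strand), the first tight junction membrane protein to be identified, stood at 7.39 and 14.0 CPM in PDGFRa-only, 5.65 and 7.65 in double-positive and 5.80 and 6.25 in PECAM1-only libraries. Both PDGFRa-only values were above both PECAM1-only values, but 1 of them lay within the double-positive range. It was higher in the PDGFRa-only than in the PECAM1-only fraction (log2 fold change 0.86, SE 0.322, adjusted p = 0.0266, edgeR). This call rested on few libraries and on the scaling: it missed the threshold when PDGFRa-only replicate 2 was left out (0.30, adjusted p = 0.522), without PECAM1-only replicate 1 (0.111) or 2 (0.0712), with upper-quartile (0.0879) or library-size scaling (0.131), with DESeq2 (0.109) and with RPKM (0.0578). The other comparisons gave 0.14 (SE 0.334, adjusted p = 0.780) for double-positive against PECAM1-only and 0.72 (SE 0.320, adjusted p = 0.127) for PDGFRa-only against double-positive cells. The latter was 1.08 (adjusted p = 0.0131) without PDGFRa-only replicate 1.

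The plaque proteins split. Tjp1, the main scaffold that binds claudin tails, was abundant in every fraction, whereas Tjp3 and Cgn were low, and lower in the PDGFRa-only than in the PECAM1-only fraction. Tjp1 (chromosome 7, 65296165 to 65527781, minus strand) stood at 418 and 502 CPM in PDGFRa-only, 513 and 551 in double-positive and 448 and 415 in PECAM1-only libraries. The 2 single-positive fractions overlapped, and the double-positive libraries were the highest. No comparison passed: the log2 fold changes were 0.09 (SE 0.157, adjusted p = 0.639, edgeR), 0.30 (SE 0.157, adjusted p = 0.140) and -0.21 (SE 0.157, adjusted p = 0.392), in the order PDGFRa-only against PECAM1-only, double-positive against PECAM1-only, and PDGFRa-only against double-positive. The first turned negative with upper-quartile (-0.11) and library-size scaling (-0.20). The second passed when only these 2 fractions were fitted (adjusted p = 0.0450) and without PDGFRa-only replicate 1 (0.0422) or 2 (0.0441).

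Tjp3 (chromosome 10, 81273207 to 81291581, minus strand), a ZO protein largely limited to epithelia, stood at 0.896 and 0.603 CPM in PDGFRa-only, 0.942 and 2.34 in double-positive and 2.61 and 5.47 in PECAM1-only libraries, from 4 to 35 counts per library. The fractions did not overlap, though PDGFRa-only replicate 1 and double-positive replicate 1 were close. Tjp3 was lower in the PDGFRa-only than in the PECAM1-only fraction (log2 fold change -2.44, SE 0.616, adjusted p = 1.87e-03, edgeR), a call lost without PECAM1-only replicate 2 (-1.81, adjusted p = 0.0597). Double-positive against PECAM1-only gave -1.28 (SE 0.515, adjusted p = 0.0550, edgeR). That value passed with upper-quartile (0.0298) and library-size scaling (0.0233), when only these 2 fractions were fitted (0.0336) and without double-positive replicate 2 (-2.06, adjusted p = 0.0372), PECAM1-only replicate 1 (0.0382) or PDGFRa-only replicate 1 (0.0279) or 2 (0.0289). PDGFRa-only against double-positive gave -1.16 (SE 0.702, adjusted p = 0.276). Exons of Tjp3 and Apba3, on the opposite strand, overlap by 40 bp.

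Cgn (chromosome 3, 94760069 to 94786492, minus strand), which links the plaque to myosin, stood at 1.12 and 3.77 CPM in PDGFRa-only, 4.08 and 6.40 in double-positive and 5.08 and 8.28 in PECAM1-only libraries. The PDGFRa-only libraries were below all others, and the other fractions overlapped. It was lower in the PDGFRa-only than in the PECAM1-only fraction (log2 fold change -1.34, SE 0.448, adjusted p = 0.0140, edgeR). The call did not hold when PDGFRa-only replicate 1 (-0.80, adjusted p = 0.106) or PECAM1-only replicate 2 (-0.95, adjusted p = 0.152) was left out, or in RPKM (adjusted p = 0.0902, limma), and the value was -2.54 without PDGFRa-only replicate 2. Double-positive against PECAM1-only gave -0.34 (SE 0.399, adjusted p = 0.533). PDGFRa-only against double-positive gave -1.0 (SE 0.461, adjusted p = 0.144), or -2.21 (adjusted p = 0.0106) without PDGFRa-only replicate 2.

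Per kb of exon, the order of the genes also changed between fractions. In the PDGFRa-only fraction Cldn6 (100.9 ± 4.63 CPM per kb) was above Tjp1 (58.9 ± 7.57), followed by F11r (13.7 ± 3.89). In the double-positive fraction Tjp1 (68.1 ± 3.40) and Cldn6 (64.8 ± 18.2) lay within their spread. In the PECAM1-only fraction Tjp1 (55.2 ± 2.95) was followed by F11r (7.05 ± 0.489), and then by Cldn6 (3.51 ± 2.35) and Cldn4 (3.24 ± 1.75), which did not differ beyond their spread. Ocln (1.43 ± 0.0748), Cgn (1.11 ± 0.376) and Tjp3 (1.09 ± 0.544) came next, and these 3 did not differ beyond their spread. Orders between genes depend on the exon lengths used: in the authors' deposited RPKM table Cldn6 (79.9 and 119) was above Tjp1 (52.9 and 56.4) in both double-positive libraries, and Ocln (0.863 and 0.900) was below Cgn and Tjp3 in the PECAM1-only ones.

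Over the 8 tested genes, 4 were higher (Cldn6, Cldn7, F11r and Ocln) and 3 lower (Cldn4, Tjp3 and Cgn) in PDGFRa-only than in PECAM1-only cells, where 59.0% of all tested genes were called, 30.1% higher and 28.8% lower. The median log2 fold change was 0.48, against 0.01 over all genes. In double-positive against PECAM1-only cells 3 were higher and 1 lower, with 38.2% of all genes called (21.8% higher, 16.4% lower) and a median of 0.22 against -0.01. In PDGFRa-only against double-positive cells 1 was called, Cldn4, which passed the count filter through its PECAM1-only libraries. In that comparison 17.6% of all genes were called (5.94% higher, 11.7% lower), and the median was 0.07 against 0.00. Calls of at least 2-fold numbered 5, 3 and 1 of the 8 in these comparisons, against 40.6%, 23.2% and 9.50% of all genes. The libraries of the fractions compared did not overlap for 7, 6 and 6 of the 8, against 77.9%, 71.7% and 57.5% of all genes. The 3 comparisons share libraries, so their counts are not independent. Library-size scaling moved the median of all genes by -0.29, -0.21 and -0.07 in these comparisons, and upper-quartile scaling by -0.21, -0.17 and -0.04. The share of calls that were higher was 51.1%, 57.0% and 33.7% with TMM, 41.5%, 43.3% and 26.4% with upper-quartile and 37.8%, 39.8% and 21.9% with library-size scaling.

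**Figure D3:**
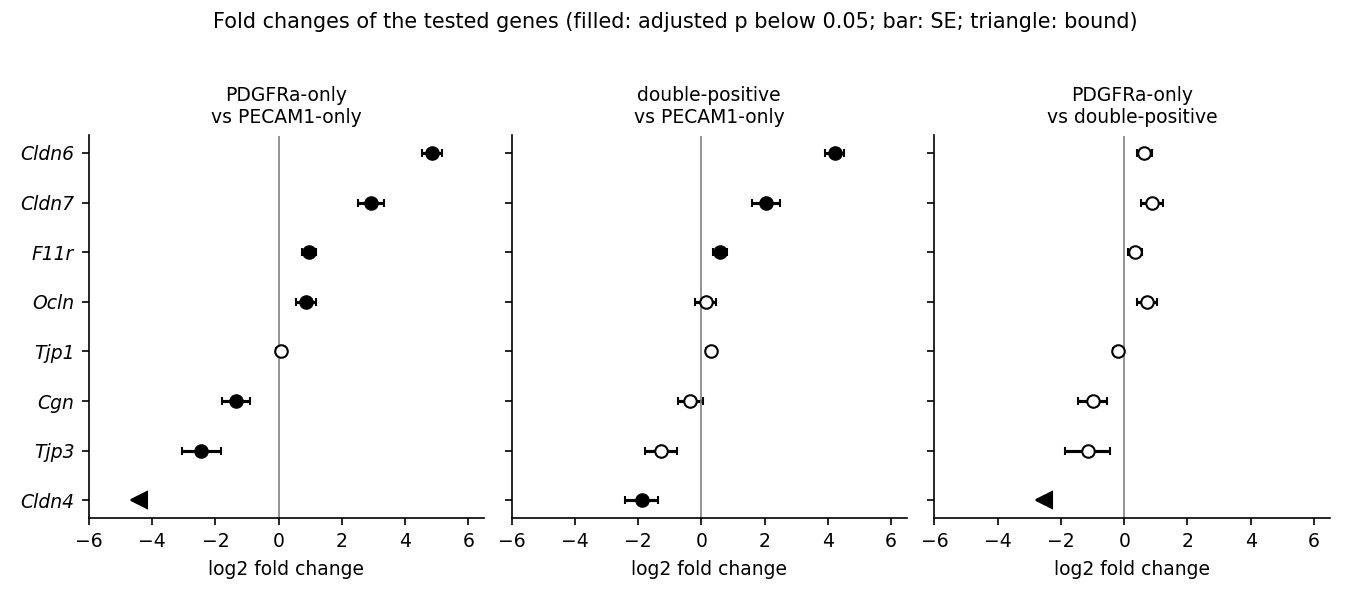
Log2 fold change (x axis) of the 8 tested genes (y axis) in the 3 comparisons, with SE bars, filled points for an adjusted p below 0.05 and triangles for the lower bound of Cldn4. Against the PECAM1-only fraction Cldn6 stands at 4.85 and 4.21 and Tjp1 at 0.09 and 0.30.

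The double-positive mean lay between the single-positive means for every tested tight junction gene except Tjp1, with TMM scaling and all 6 libraries. The share of all tested genes with such a middle level was not computed, so this is not read as particular to these genes. For Ocln the double-positive level was below the PECAM1-only one under library-size (-0.072) or upper-quartile scaling (-0.024), or when double-positive replicate 2 was left out (-0.085), and for Cgn it was above it without PECAM1-only replicate 2 (0.058). It was 64.2% of the PDGFRa-only mean for Cldn6, 55% for Cldn7, 62.1% for Ocln and 77.9% for F11r. For the genes with the opposite order it was 26.6% of the PECAM1-only mean for Cldn4, 40.6% for Tjp3 and 78.4% for Cgn. On a log2 scale on which the PECAM1-only mean is 0 and the PDGFRa-only mean is 100, double-positive cells stood at 86.5 for Cldn6, 69.6 for Cldn7, 64.4 for F11r and 59.7 for Tjp3, and at 21.9 for Cgn and 16.6 for Ocln. Cldn4 has no such position, since its PDGFRa-only counts were 0.

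Genes with the most similar pattern over the 6 libraries were searched among 10411 tested genes with at least 5 CPM on average, by the distance between centred log2 CPM values. The libraries share 3 fractions, so many genes correlate highly. Nearest to Cldn6 were F3, the tissue factor of blood clotting (distance 0.29, r = 0.999), and Plaur, the urokinase receptor (0.48, r = 0.996). Nearest to Cldn4 were Adcy1 (0.56, r = 0.992) and Bmf (0.59, r = 0.992), and nearest to Tjp1 Map4k3 (0.08, r = 0.977) and Dnm1l (0.13, r = 0.946). For the others these genes were Soat2 and Jun (Cldn7), Pgk1 and Slc16a3 (Ocln), Habp4 and Gm15946 (F11r), Ddit4 and Taf9b (Tjp3) and Gpr21 and Flnc (Cgn). Among the tight junction genes themselves, r was 0.966 between Cldn6 and Cldn7, 0.944 between Cldn4 and Tjp3 and -0.788 between Cldn4 and Cldn6. In every distance and r of Cldn4, its PDGFRa-only values come from 0 counts with a prior count of 2, so their size is set by that choice.

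The rest of the junction was described by further lists, in the PDGFRa-only against PECAM1-only comparison. The shares to read their counts against are the 30.1% higher and 28.8% lower, 59.0% in all, among all tested genes. Of 12 other tight junction membrane proteins 8 were tested, of which 4 were higher and 2 lower, with a median log2 fold change of 1.01. Higher were Esam (34.8 ± 0.826 against 1.65 ± 0.126 CPM, log2 fold change 4.38, adjusted p = 9.54e-11, edgeR), an adhesion molecule of endothelium, Lsr (79.8 ± 33.5 against 4.87 ± 0.915 CPM, 4.01, adjusted p = 3.72e-10), a lipoprotein receptor of tricellular junctions, Cxadr (87.0 ± 29.2 against 17.5 ± 1.55 CPM, 2.32, adjusted p = 3.04e-08) and Jam3 (43.7 ± 7.30 against 10.4 ± 0.410 CPM, 2.07, adjusted p = 5.15e-08). Jam2, a relative of F11r, was lower (5.32 ± 1.98 against 84.5 ± 6.24 CPM, -4.04, adjusted p = 1.28e-11). Ildr1, the Lsr relative, had 3 counts in the PDGFRa-only libraries against 15.9 ± 0.655 CPM, a ratio of 59.0 (exact 95% counting interval 19.9 to 288, adjusted p = 3.15e-09, edgeR). Jam3, and Cdh1 further on, were chosen after their values were seen.

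Beside Esam, the endothelial and blood list had a summed level of 71.6 to 126 CPM in PDGFRa-only, 55.1 to 75.2 in double-positive and 14.5 to 16.4 in PECAM1-only libraries. Of its 8 genes 5 were at 0 counts in the PDGFRa-only libraries (Tie1, Emcn, Erg, Ptprc and Gata1), while Cdh5 averaged 88.7 CPM there.

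Of 29 plaque and polarity proteins 27 were tested, 10 of them higher and 10 lower, with a median of 0.08, so 20 of 27 were called against 59.0% of all genes. Amot, which joins the junction to Hippo signalling, was higher (288 ± 34.6 against 1.30 ± 0.813 CPM, log2 fold change 7.79, adjusted p = 2.32e-14, edgeR), and its value was 8.60 without PECAM1-only replicate 2. The polarity scaffold Patj was higher as well (92.5 ± 13.9 against 11.3 ± 2.49 CPM, 3.03, adjusted p = 9.97e-11). Lower were the scaffold Magi1 (3.11 ± 1.62 against 22.9 ± 3.01 CPM, -2.95, adjusted p = 1.04e-07), Arhgef18 (25.3 ± 1.55 against 101.8 ± 7.86 CPM, -2.01, adjusted p = 5.71e-09) and the polarity protein Llgl2 (24.5 ± 1.43 against 85.1 ± 14.5 CPM, -1.80, adjusted p = 1.12e-07).

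Of 12 adherens junction proteins, the belt below the tight junction, 4 were higher and 4 lower, with a median of -0.24. Plakoglobin (Jup) was higher (159 ± 1.31 against 53.2 ± 7.64 CPM, log2 fold change 1.58, adjusted p = 6.83e-08, edgeR), as were Nectin2 (1.31, adjusted p = 8.57e-07) and p120 catenin (Ctnnd1, 0.94, adjusted p = 1.76e-05). P-cadherin (Cdh3) was lower (0.640 ± 0.588 against 22.0 ± 0.441 CPM, -4.91, adjusted p = 1.58e-09), with -6.49 without PDGFRa-only replicate 2, and Nectin3 was lower by -1.45 (adjusted p = 4.94e-07). E-cadherin (Cdh1) was abundant in both and lower in PDGFRa-only cells (319 ± 36.9 against 461 ± 26.9 CPM, -0.53, adjusted p = 7.19e-03, edgeR). Leaving out PECAM1-only replicate 2 (adjusted p = 0.0607) or using RPKM (0.0532, limma) ended the Cdh1 call.

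Of 6 claudin partners and epithelial proteases 5 were tested, 2 of them higher and 0 lower, with a median of -0.04. The membrane protease Prss8 was higher (14.0 ± 0.731 against 2.52 ± 1.52 CPM, log2 fold change 2.48, adjusted p = 4.24e-06, edgeR), with 3.26 without PECAM1-only replicate 2, as was the protease inhibitor Spint2 (71.9 ± 8.27 against 33.9 ± 0.395 CPM, 1.08, adjusted p = 3.47e-05). Epcam, which binds Cldn7, stood at 122 ± 12.6 and 125 ± 18.7 CPM (-0.04, adjusted p = 0.841), St14 at 29.5 ± 3.70 and 35.4 ± 4.30 CPM (-0.26, adjusted p = 0.299) and Spint1 at 26.5 ± 7.57 and 31.4 ± 8.35 CPM (-0.26, adjusted p = 0.341). With library-size scaling St14 (adjusted p = 0.0270) and Spint1 (0.0468) were called lower, and Spint1 also without PDGFRa-only replicate 1 (0.0474).

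Of 14 regulators of epithelial transcription and splicing 12 were tested, 3 of them higher and 6 lower, with a median of -1.46. The E-box repressors Snai1 and Zeb1, named by their small p, went opposite ways. Snai2 and Zeb2 of the same list fell outside the naming rule and are not described here. Snai1 was higher in the PDGFRa-only fraction (47.5 ± 13.9 against 0.296 ± 0.197 CPM, log2 fold change 7.20, adjusted p = 9.57e-12, edgeR), with 8.08 without PECAM1-only replicate 1, and Zeb1 was lower (8.32 ± 1.54 against 81.2 ± 0.212 CPM, -3.31, adjusted p = 3.11e-11). The PECAM1-only level of Snai1 lay near the floor of 0.226 CPM (3 counts over that fraction), so the size of its fold change rests on few counts. The Grainyhead-like factor Grhl3 had 2 counts in the PDGFRa-only libraries against 62.2 ± 6.21 CPM, a ratio of 346 (exact 95% counting interval 95.5 to 2862, adjusted p = 8.80e-13, edgeR). Its fitted log2 fold change ranged from -11.57 without PDGFRa-only replicate 2 to -7.59 without PDGFRa-only replicate 1. The AP-2 factor Tfap2c was lower (0.564 ± 0.481 against 32.0 ± 2.00 CPM, -5.63, adjusted p = 8.73e-11), with -7.03 without PDGFRa-only replicate 2, and Hnf4a was higher (76.5 ± 12.5 against 14.9 ± 1.85 CPM, 2.36, adjusted p = 3.02e-09).

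**Figure D4:**
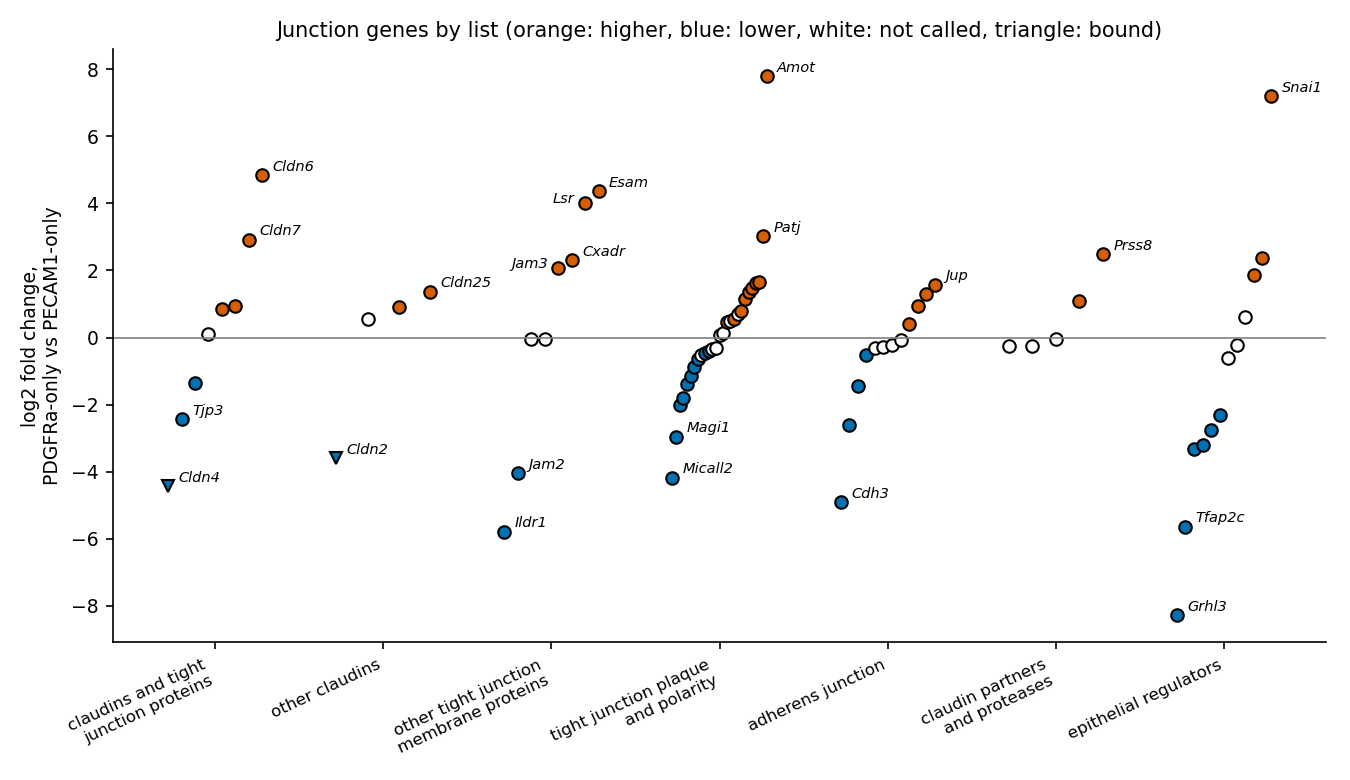
Log2 fold change of PDGFRa-only against PECAM1-only cells (y axis) for each tested junction gene, by list (x axis), in orange for higher, blue for lower, white for not called and as a triangle for a lower bound. Every list except the claudin partners and proteases holds genes called in both directions, from Amot at 7.79 to Grhl3, whose fitted value depends on 2 counts.

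Markers of the cell types in the culture moved with these genes. The summed level of 9 primitive endoderm markers was 23931 to 24402 CPM in PDGFRa-only, 15464 to 16581 in double-positive and 73.3 to 93.6 in PECAM1-only libraries, in the same order as Cldn6 and Cldn7. That of 7 pluripotency markers was 217 to 270, 490 to 564 and 1414 to 1492 CPM, in the order of Cldn4, Tjp3 and Cgn. Of these 7, 6 were called lower in PDGFRa-only than in PECAM1-only cells and Dppa5a was called higher (113 ± 6.45 against 71.4 ± 13.3 CPM, log2 fold change 0.66, adjusted p = 2.21e-03, edgeR). The 6 visceral endoderm markers summed to 161 to 169, 94.2 to 106 and 13.6 to 16.9 CPM, and 3 of them were abundant enough to test. In the PECAM1-only libraries Apoa1, Apoa2 and Ttr had 0 counts, and Hnf4a made up most of the sum. The part of cell mixture in the differences was not tested.

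The 8 trophoblast markers summed to 6.33 to 8.96 CPM in PDGFRa-only, 19.5 to 23.2 in double-positive and 44.4 to 45.0 in PECAM1-only libraries, also in the order of Cldn4, Tjp3 and Cgn. In the PECAM1-only fraction the defining marker Cdx2 had 0 counts and Elf5 had 2, and Tfap2c made up 32.0 ± 2.00 CPM of the sum. The 4 surface ectoderm markers summed to 0.224 to 0.301, 0.942 to 3.12 and 2.90 to 3.28 CPM, with Krt5, Krt14 and Trp63 at 0 counts in both single-positive fractions. The 7 fibroblast markers summed to 2.02 to 5.13, 3.61 to 6.09 and 1.87 to 2.18 CPM.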

How the data were processed

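The authors deposited read counts per gene without normalization; per the submitters' processing notes cutadapt 1.2.1, Bowtie2 2.1.0, TopHat2 2.0.8b, HTSeq 0.5.4p3 and GRCm38 were used, with no role or order given. The annotation release is not given in the sources used here. A deposited RPKM table by the authors lists 16105 genes, 8 of the 9 described here among them, and served as an alternative. Of the 38561 identifiers 36639 matched GENCODE M21, which gave positions and exon lengths. Genes were kept by filterByExpr (minimum count 10), scaled by TMM and fitted with edgeR 4.0.16 in R 4.3.3, with 1 mean per fraction over all 6 libraries and 3 residual degrees of freedom, and every test was two-sided. Alternatives used limma 3.58.1 on log2(RPKM + 0.1), DESeq2 1.42.0, other scalings and filters, a replicate block, fits of 2 fractions and leaving out each library. The genes, lists and tests were chosen with earlier results of these data known. All 9 genes are named, with up to 5 tested genes per list by smallest p in PDGFRa-only against PECAM1-only cells and claudins averaging at least 1 CPM. Floors of 3 counts and 95% intervals cover counting error only, since amplified reads are not independent molecules. Some results are not reported here. The scripts were tested on simulated data.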

Additional observations from a re-analysis of the deposited data

How the results depend on the processing

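Counts of called tight junction genes depended on the processing more than the values of Cldn6 and Cldn7 against the PECAM1-only fraction did. In PDGFRa-only against PECAM1-only cells, 2 were higher with RPKM and 2 at 2-fold or more, and 0 were lower with a stricter count filter, which drops the low genes. In double-positive against PECAM1-only cells, 2 were lower with upper-quartile scaling, library-size scaling, the replicate block or the 2 fractions alone, and 0 with the stricter filter. In PDGFRa-only against double-positive cells, 1 was higher without a filter or with the 2 fractions alone and 2 with the replicate block, and 0 were lower with the stricter filter, the 2 fractions alone or RPKM. Cldn4 was not tested with the stricter filter or the 2 fractions alone, since its counts fell below the filter. At 2-fold or more 3220 and 1322 genes were called in the last 2 comparisons, and 753 in the last with RPKM.

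Without 1 library at a time, the ranges in the same order of comparisons were 6827 to 8156, 3648 to 6253 and 1326 to 2945 genes called, 3 to 4, 2 to 4 and 0 to 2 tight junction genes higher, and 1 to 3, 0 to 2 and 1 to 2 lower. Direction changed for values that had missed the threshold. For PDGFRa-only against PECAM1-only, Tjp1 was -0.11 (upper-quartile) and -0.20 (library-size). Without 1 library, Tjp1 ranged from -0.041 to 0.23, Cldn10 from -0.075 to 0.94, Spint1 from -0.56 to 0.043 and Epcam from -0.17 to 0.13. For double-positive against PECAM1-only, Ocln was -0.024 (upper-quartile) and -0.072 (library-size), and without 1 library Ocln ranged from -0.085 to 0.37 and Cgn from -0.70 to 0.058. The cause was not tested. The deviations of same-numbered libraries correlated with r of -0.029, 0.18 and 0.13 in the same order of comparisons, so the numbers are not taken to pair samples. The replicate block gave 8397, 5644 and 2834 genes called. With it, Tjp3 in the second comparison (adjusted p = 0.0355) and Cldn6 (0.0155) and Cldn7 (0.0393) in the third passed the threshold. With 2 libraries per fraction and 4 to 35 counts for Tjp3, depth limits the low genes.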
